A study of Drosophila melanogaster with 22 samples.

Results

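The cytosolic ribosomal protein genes of Drosophila melanogaster were followed in RNA from anterior ovarioles. They were taken as every annotated gene whose symbol begins with RpL, RpS or RpLP and a number, together with sta, which encodes ribosomal protein SA of the small subunit. The 10 genes of 5 paralog pairs in which one copy is often tissue-biased were left out of the set. This gave 83 of 17478 annotated genes: 32 for the small subunit, 45 for the large subunit, 3 for the stalk (RpLP0, RpLP1 and RpLP2) and 3 related genes whose symbols end in -like. Of the 83 genes, 78 had enough reads to be tested.

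All females were untreated virgins of w1118, a laboratory stock with white eyes. The libraries covered days 1 to 8 after eclosion, with 2 libraries each for days 1 and 4 and 3 for each other day, 22 in all. The 12 libraries of days 5 to 8 came from ovarioles cut after stage 7 egg chambers. The 10 libraries of days 1 to 4 came from ovarioles cut after stage 8, so that age and the cut cannot be told apart between the age series. The counts of these age series were also deposited as separate sets, a split that coincides with age and the cut. Each sample pooled 30 to 50 ovarioles, and 200.0 ng of total RNA went into a polyA-selected, strand-specific library with ERCC transcripts, synthetic RNAs, as a spike-in.

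Each ribosome is built from ribosomal RNA and one copy of most ribosomal proteins, and the stalk of the large subunit, which carries several copies of RpLP1 and RpLP2, recruits the elongation factors. Cells that grow fast make many ribosomes, and the nurse cells of the fly ovary supply the oocyte with the ribosomes of the early embryo. In flies, losing one copy of many of these genes gives the Minute phenotype of slow development and thin bristles. In bulk RNA, fewer cells of a type and less RNA per cell cannot be told apart.

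Libraries fell into 2 kinds by their spike-in. Those called spike-poor below are replicate 1 of day 2 with 31 ERCC counts, replicate 2 of day 3 with 19, and replicate 2 of day 4 with 52, whereas the other 19 held at least 25577. The gene counts numbered 2975582 to 4634327 per library at days 5 to 8, 3648865 to 9781870 in the 3 spike-poor libraries, and 1146915 to 2573634 in the 7 spike-in libraries of days 1 to 4. Germline markers were counted in every library (15 of 15). Several other features moved with these groups. Small nucleolar and small nuclear RNAs took 0.0335 to 0.0997% of gene counts at days 5 to 8, 0.0418 to 0.0531% in the spike-poor libraries and 0.176 to 0.406% in the young spike-in libraries. The summed level of 10 chorion genes, eggshell genes of late follicle cells, was 6.48 to 38.7, 360 to 1034 and 107 to 1646 CPM in the same 3 groups, and that of 16 muscle genes of the ovariole sheath 791 to 1279, 921 to 1084 and 950 to 3183 CPM. Transcripts of the mitochondrial genome took 0.588 to 1.51%, 1.17 to 2.72% and 0.536 to 1.02%. The summed level of 14 markers of follicle and other somatic ovary cells was 1091 to 1505 CPM at days 5 to 8, 761 to 917 CPM in the spike-poor libraries and 922 to 1276 CPM in the young spike-in libraries, so that both kinds of young library were separate. Summed germline markers (8004 to 9912, 7266 to 7752 and 8003 to 8648 CPM in the same 3 groups) and the sum of 9 haemocyte markers (3426 to 6578, 2461 to 2815 and 3018 to 5559 CPM) were also separate between the 2 kinds of young library. Most of the haemocyte sum came from the collagen genes vkg and Cg25C, which other tissues also express, and He was at 0 in all 22 libraries. The part of these features in the results below was not tested.

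Expressed ribosomal protein genes stood at similar, high levels, given here as CPM (counts relative to the TMM-scaled total of gene counts) per kb of exons. Over 22 libraries the median of the 78 tested genes was 2281 CPM per kb, and the quartiles were 1646 and 2979. RpL41, which encodes the smallest protein of the ribosome, was highest at 10817 ± 2533 CPM per kb (SD, n = 22). Among the genes next in order, RpL23A, a protein at the exit of the peptide tunnel, had 4769. The stalk gene RpLP1 had 4736, sta 4663, RpL4 4271, RpS24 4011, RpLP2 4009 and RpL6 3865 CPM per kb. Below RpL41, neighbours in this order mostly did not differ beyond their spread: in 4 of 77 neighbouring pairs the means differed by more than the larger SD. The order was alike in all libraries, with a median Spearman rho of 0.966 over the 231 pairs of libraries and a lowest value of 0.866, a description across genes that share each library.

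The low end of the order held copies of duplicated genes, among others. RpS15Ab had the lowest mean of the tested genes, 33.1 CPM per kb, and RpLP0-like, whose yeast relative Mrt4 assembles on pre-ribosomes in place of the stalk protein P0, had 105 CPM per kb. RpL38 followed with 566, RpL5, which binds 5S ribosomal RNA, with 662, RpL34a with 729, RpS14a with 823, RpS21 with 1068, RpL10 with 1078, RpS15Aa with 1234 and RpS9 with 1457 CPM per kb. From the longest annotated transcript instead of all exons, 55 of the 83 genes stayed within 3 ranks of their place. For RpL5 both lengths are 3835 bp, so its low place rests on that length. Not divided by length, RpL5 had 1913 CPM in the lowest library and 3836 CPM in the highest.

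**Figure D1:**
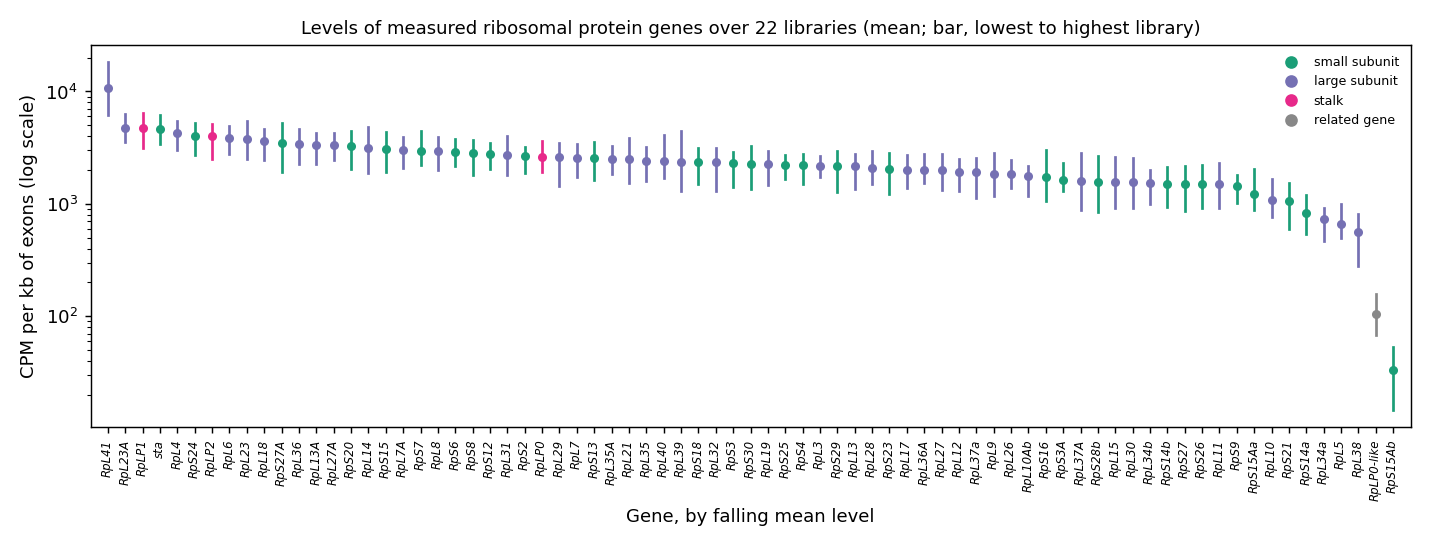
Level of 75 of the 78 tested ribosomal protein genes in CPM per kb of exons, on a log axis, by falling mean. Points are means of 22 libraries, bars run from the lowest to the highest library, and colours give the subunit. RpL41 stands alone at the top at 10817 CPM per kb, and RpLP0-like (105) and RpS15Ab (33.1) stand apart at the bottom.

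Of the 83 genes 5 could not be tested. RpL10Aa and RpS28a, second copies of RpL10Ab and RpS28b, had 0 counts in 22 libraries, which allows a level of up to 0.0406 CPM over the pooled libraries (3 counts, counting error only). RpL37b had 11 counts in 5 libraries and at most 3 in any one, and RpS28-like and RpL7-like had 1 count each. RpL7-like shares 1771 bp of exons on the same strand with CG34164, and the sources used here do not say how a read over both was counted.

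Copies of one protein differed in level per kb in every library, as did RpLP0 and the related gene RpLP0-like. RpS14b lies directly downstream of RpS14a on the X chromosome (release 6 coordinates: RpS14a at X:7933742-7934677 and RpS14b at X:7934898-7935792, both on the plus strand). The ratio of RpS14b to RpS14a, both per kb, was 1.69 to 2.31 at days 5 to 8 with a median of 1.94, 1.72 to 2.01 in the spike-poor libraries, and 1.31 to 1.79 with a median of 1.55 in the young spike-in libraries. These ratios depend on the exon lengths, 877 bp for RpS14a and 597 bp for RpS14b. In counts not divided by length, RpS14a was the higher copy in day 1 replicate 1 (945 against 840). The same held in day 2 replicate 3 (698 against 691) and day 3 replicate 1 (752 against 742), and RpS14b was higher in the other libraries. Per kb, RpL34b exceeded RpL34a by 1.74 to 2.84 times over all libraries. RpS15Aa exceeded RpS15Ab by 19.9 to 78.8 times, and RpLP0 exceeded RpLP0-like by 17.0 to 35.5 times. Reads that fit either copy may have been dropped or split, so these ratios are uncertain.

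Together the 83 genes took 12.3 to 22.2% of the gene counts of a library. Day 1 had 15.0 and 15.3%, day 2 had 18.0, 15.7 and 13.9%, day 3 had 14.7, 22.2 and 15.9%, and day 4 had 12.3 and 18.1%, in replicate order. Day 5 had 21.6, 19.0 and 16.9%, day 6 had 19.6, 15.3 and 17.3%, day 7 had 19.4, 18.5 and 16.4%, and day 8 had 19.2, 18.8 and 18.8%. On each of days 2 to 4 the spike-poor library was the highest of its day. Grouped, the share averaged 18.4 ± 1.67% at days 5 to 8 (SD, n = 12), 19.4 ± 2.41% in the spike-poor libraries (n = 3) and 14.7 ± 1.24% in the young spike-in libraries (n = 7). The lowest library of days 5 to 8, day 6 replicate 2 at 15.3%, lay within the range of the young spike-in libraries.

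**Figure D2:**
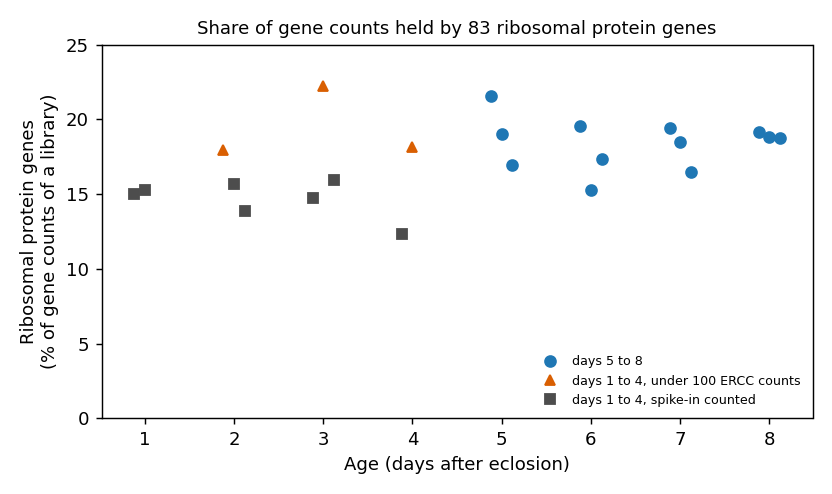
Share of the gene counts of each library held by the 83 ribosomal protein genes, in percent, against age in days. Circles are days 5 to 8, triangles the 3 libraries with under 100 ERCC counts, squares the other libraries of days 1 to 4. Triangles (18.0, 22.2 and 18.1%) lie above the squares of their own day. Those of days 2 and 4 lie among the circles, and that of day 3 lies above the highest circle (21.6%).

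Against the young spike-in libraries, ribosomal protein mRNAs were higher at days 5 to 8 nearly throughout the set. In the edgeR fit with a term for library kind, 70 of 78 genes were called higher (adjusted p under 0.05) and 0 lower, where 6.21% of all 8024 tested genes were called higher and 8.04% lower. The median log2 difference was 0.46 over the 78 genes and 0.01 over all genes, and it was positive for 78 of 78. Abundant non-member genes were set beside the set, with transcripts no longer than its longest (RpL5, 3835 bp, where the median of the set was 871 bp). Of the 270 such genes with a mean log2 CPM of at least 8, 33.3% were called higher (median 0.17). Of the 33 of these with transcripts of at most 1200 bp, 36.4% were called higher (median 0.16). All 12 older libraries exceeded all 7 young ones for 27 of the 78 genes, against 0.81% of all tested genes. Leaving out the spike-poor libraries altogether, which uses no estimate of library kind, 73 of 78 were called higher.

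In the small subunit 25 of 31 genes were called. RpS29, a zinc-binding protein of the head of the small subunit, showed the greatest difference. It had 1989, 2561.5 and 2959 CPM (lowest, median, highest) at days 5 to 8, against 1291, 1564 and 1798 CPM in the young spike-in libraries. The groups did not overlap, and the log2 difference was 0.74 (SE 0.08, edgeR adjusted p = 1.64e-06). RpS14b had 884, 1019 and 1268 CPM at days 5 to 8, against 559, 632 and 741 CPM, also without overlap (log2 0.72, SE 0.08, edgeR adjusted p = 1.4e-06). RpS26, which in yeast contacts the mRNA upstream of the start codon, had 2734, 3316 and 4098 CPM, against 1698, 2258 and 2502 CPM (log2 0.63, SE 0.07, edgeR adjusted p = 2.0e-06). Its ranges were likewise separate. RpS24 and RpS30, the second made as a fusion with a ubiquitin-like protein, were higher by 0.61 and 0.59 on the log2 scale. RpS6, the substrate of S6 kinase in the TOR pathway, had 3176, 3786 and 4487 CPM, against 2572, 2706 and 3073 CPM, and was 0.46 higher (SE 0.07, edgeR adjusted p = 2.93e-05). It shares 202 bp of exons on its strand with CR33222 and a snoRNA, which may touch its counts.

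The 6 small-subunit genes that did not pass were RpS12, RpS2, RpS3A, RpS9, RpS16 and RpS15Ab, with log2 differences between 0.17 and 0.35. RpS2, at the mRNA entry channel, had 2826, 3305 and 3763 CPM at days 5 to 8, against 2288, 3069.8 and 3378 CPM in the young spike-in libraries. Its groups overlapped (log2 0.18, SE 0.06, edgeR adjusted p = 0.0512). RpS12, known in flies for its role in cell competition, differed by 0.17 (SE 0.08, edgeR adjusted p = 0.146).

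In the large subunit 42 of 43 genes were called, all but RpL27A (log2 0.21, SE 0.07, edgeR adjusted p = 0.0567). RpL36 had 1943, 2722 and 3195 CPM at days 5 to 8, against 1569, 1779 and 1857 CPM in the young spike-in libraries, which stood wholly lower (log2 0.66, SE 0.08, edgeR adjusted p = 2.77e-06). RpL15 and RpL19 followed, both at 0.64, then RpL38 at 0.63 and RpL18 at 0.62. RpL32, known as rp49 and widely used as a reference gene for quantitative PCR in flies, had 1586, 2098 and 2455 CPM, against 1044, 1524 and 1613 CPM. Its ranges overlapped, with day 6 replicate 2 of the older libraries inside the young range, and the log2 difference was 0.53 (SE 0.08, edgeR adjusted p = 7.89e-05). RpL5 and RpL11, which reach the ribosome in one complex with 5S RNA, were higher by 0.33 and 0.41. RpL3, close to the peptidyl transferase centre, was higher by 0.30, and RpL41 by 0.40.

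All 3 stalk genes were called. RpLP0 had 3008, 3659 and 4196 CPM at days 5 to 8, against 2561, 2705 and 3261 CPM in the young spike-in libraries, with overlap (log2 0.40, SE 0.07, edgeR adjusted p = 0.000146). RpLP1 was 0.41 and RpLP2 0.30 higher. RpLP0-like was not called: it had 79.3, 97.3 and 137 CPM, against 64.6, 85.2 and 122 CPM, and the log2 difference was 0.07 (SE 0.11, edgeR adjusted p = 0.749).

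**Figure D3:**
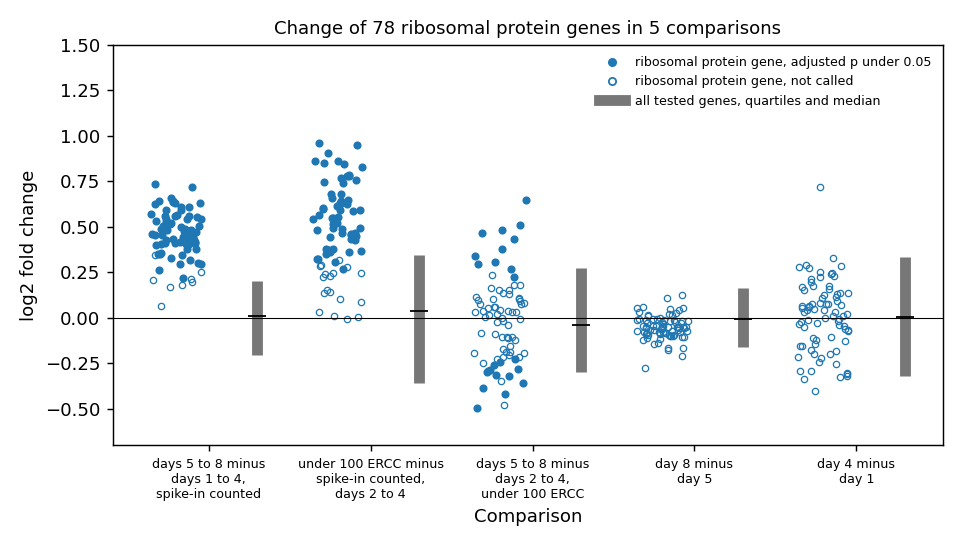
Log2 fold change of the 78 tested ribosomal protein genes in 5 comparisons. Each point is a gene, filled where the edgeR adjusted p was under 0.05, and the grey bar beside it spans the quartiles of all 8024 tested genes with their median as a tick. The first cloud is wholly above 0 with a median of 0.46, the second has a median of 0.49 and reaches 0.96, the third is centred near 0 with calls on both sides, and the 2 right-hand clouds hold no call.

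The spike-poor libraries carried more ribosomal protein mRNA than the spike-in libraries of the same days. With day in the fit, 60 of 78 genes were called higher and 0 lower, where 7.8% of all tested genes were called higher and 11.8% lower. The median log2 difference was 0.49 over the set and 0.04 over all genes. By day, the median over the 78 genes was 0.24 on day 2, 0.61 on day 3 and 0.59 on day 4, and 66, 77 and 77 genes were positive. Over all tested genes the medians were 0.06, 0.04 and 0.03. Each of these days rests on 1 spike-poor library, and day 4 has 1 spike-in library, replicate 1, which is flagged below. The 3 spike-poor libraries exceeded all 5 spike-in libraries of days 2 to 4 for 43 of 78 genes, against 10.7% of all tested genes. Without day 3 replicate 2, 33 genes were called. Of the 270 abundant non-member genes 23.3% were called higher and 3.33% lower between library kinds (median 0.10). Of the 33 of them with transcripts of at most 1200 bp, 48.5% were called higher and 9.09% lower (median 0.38). In the same comparison 0 of 12 somatic ovary markers were called higher and 6 lower (median -0.73), 0 of 5 tested haemocyte markers higher and 3 lower (-0.67), and 0 of 15 germline markers higher and 4 lower (-0.16). The part of these differences in the values of the set was not tested.

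RpL30, whose yeast counterpart binds its own transcript, differed most between library kinds. It had 1453, 2078 and 1549 CPM in the spike-poor libraries of days 2, 3 and 4, against 737.05, 989 and 1099 CPM (lowest, median, highest) in the 7 young spike-in libraries. The groups were separate, and the log2 difference was 0.96 (SE 0.11, edgeR adjusted p = 3.78e-06). RpL15 had 1958, 2652 and 1678 CPM, against 943, 1134 and 1399 CPM (log2 0.95, SE 0.11, edgeR adjusted p = 3.66e-06). RpS28b followed at 0.90, RpL14 and RpL37A (the 2L gene) at 0.86, RpL21 at 0.85, RpS15Ab at 0.84, RpS27A at 0.78 and RpS16 at 0.78. RpS15Ab, the least abundant of them, lost its call without day 2 replicate 2 or without any 1 of the 3 libraries of day 3. The 2 genes made as ubiquitin fusions, RpS27A and RpL40, and the fusion gene RpS30 were close together at 0.78, 0.77 and 0.75. RpL32 had 1844, 2499.8 and 2138 CPM in the spike-poor libraries, all above the 1613 CPM of the highest young spike-in library (log2 0.63, SE 0.12, edgeR adjusted p = 0.000765).

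A few genes had values close to each other in both kinds of library. RpL23A had 3721, 4201 and 4128 CPM in the spike-poor libraries of days 2, 3 and 4, against 3632, 3941 and 4379 CPM (lowest, median, highest) in the young spike-in libraries. All 3 values lay inside that range (log2 -0.01, SE 0.09, edgeR adjusted p = 0.962). RpL28 differed by 0.0017 (SE 0.11), RpS26 by 0.01 (SE 0.11) and RpL3 by 0.03 (SE 0.10). RpL23A shares 116 bp of exons on its strand with Uhg7, and RpL28 and RpL3 share 61 and 84 bp with annotated snoRNAs, which may touch their counts. RpS26 has no such overlap.

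**Figure D4:**
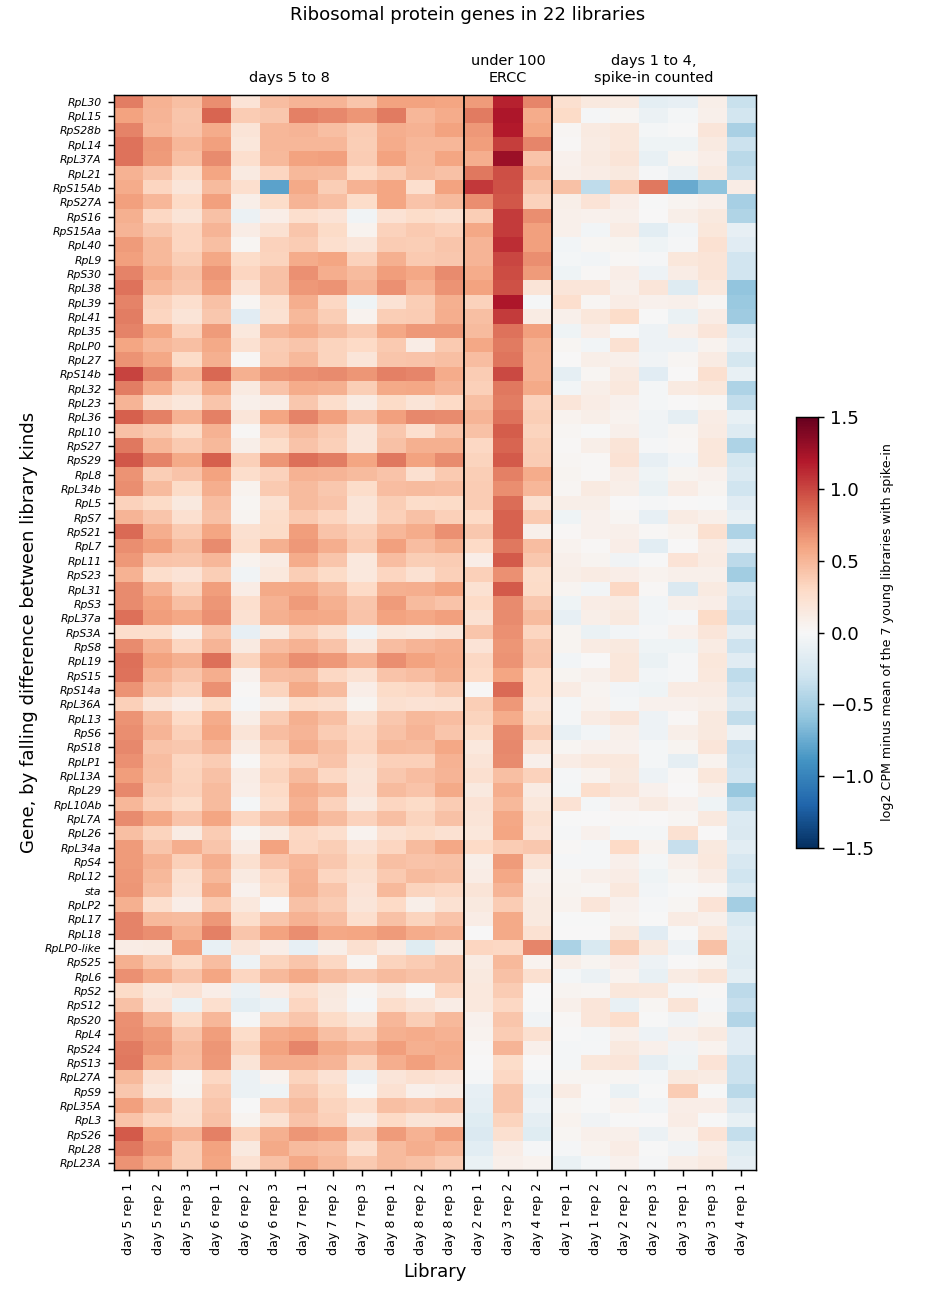
Log2 CPM of 75 of the 78 tested ribosomal protein genes in 22 libraries, each gene relative to its mean over the 7 young spike-in libraries. Rows run by falling difference between library kinds, and columns from days 5 to 8 over the 3 libraries with under 100 ERCC counts to the spike-in libraries of days 1 to 4. The older columns are mostly red from top to bottom, the columns of the 3 spike-poor libraries are red at the top and pale at the bottom, and day 4 replicate 1 is blue.

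Set against the spike-poor libraries of days 2 to 4, the older libraries had some ribosomal protein genes higher and some lower. Of 78 genes 11 (14.1%) were called higher and 13 (16.7%) lower, where 11.9% of all tested genes were called higher and 7.91% lower. The share called higher was thus near that of all tested genes. The median log2 difference was 0.01 over the set and -0.04 over all genes. Of the 33 short, abundant non-member genes 3.03% were called higher and 36.4% lower (median -0.21), and of the 270 abundant ones 11.1% and 9.63%. Somatic ovary markers were called higher for 7 of 12 and lower for 0 (median 0.76), and haemocyte markers higher for 3 of 5 and lower for 0 (0.84), and their part in these calls was not tested. This comparison and the 2 before it share libraries, so their values are given side by side and not as separate support. The higher genes included RpS26, RpL28, RpL23A, RpS13, RpS24, RpL18, RpL35A, RpL4, RpL3 and RpL6. The lower genes included RpS16, RpS15Aa, RpL40, RpL21, RpL30, RpS28b, RpS3A, RpL14, RpL9, RpL23, RpLP0 and RpL36A. Calls rested on single libraries: without day 2 replicate 1 and without day 4 replicate 2, 4 and 6 genes were higher, and without day 3 replicate 2 and without day 4 replicate 2, 0 and 1 genes were lower.

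RpS26, RpL28 and RpL23A passed in this comparison under every alternative run. RpS26 had 2734 to 4098 CPM at days 5 to 8, against 1871, 2568 and 1917 CPM in the spike-poor libraries of days 2, 3 and 4, without overlap (log2 0.65, SE 0.10, edgeR adjusted p = 8.44e-05). RpL23A had 4685 to 6359 CPM, against 3721, 4201 and 4128 CPM (log2 0.46, SE 0.08, edgeR adjusted p = 0.00037). RpL28 had 2586 to 4045 CPM, against 2093, 2531 and 2314 CPM (log2 0.51, SE 0.10, edgeR adjusted p = 0.000952). For each of the 3 the older libraries lay wholly above all 10 libraries of days 1 to 4, which held for 4 of the 78 genes and for 0.137% of all tested genes. Against the 3 spike-poor libraries alone, the older ones lay wholly above for 4 of the 78 genes and for 7.75% of all tested genes.

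Among the lower genes, RpS16 had 1035 to 1584 CPM at days 5 to 8, against 1424.5, 2276 and 1777.5 CPM in the spike-poor libraries (log2 -0.50, SE 0.11, edgeR adjusted p = 0.00234). The older range reached above the lowest spike-poor library. RpS15Aa had 974 to 1342 CPM, against 1410.3, 1942 and 1442 CPM, without overlap (log2 -0.42, SE 0.09, edgeR adjusted p = 0.00262). The older libraries lay wholly below the 3 spike-poor ones for 1 of the 78 genes and for 5.15% of all tested genes. RpL30 had 1074 to 1578 CPM, against 1453, 2078 and 1549 CPM (log2 -0.32, SE 0.10, edgeR adjusted p = 0.0245). RpL32 did not pass (log2 -0.08, SE 0.10, edgeR adjusted p = 0.618).

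**Figure D5:**
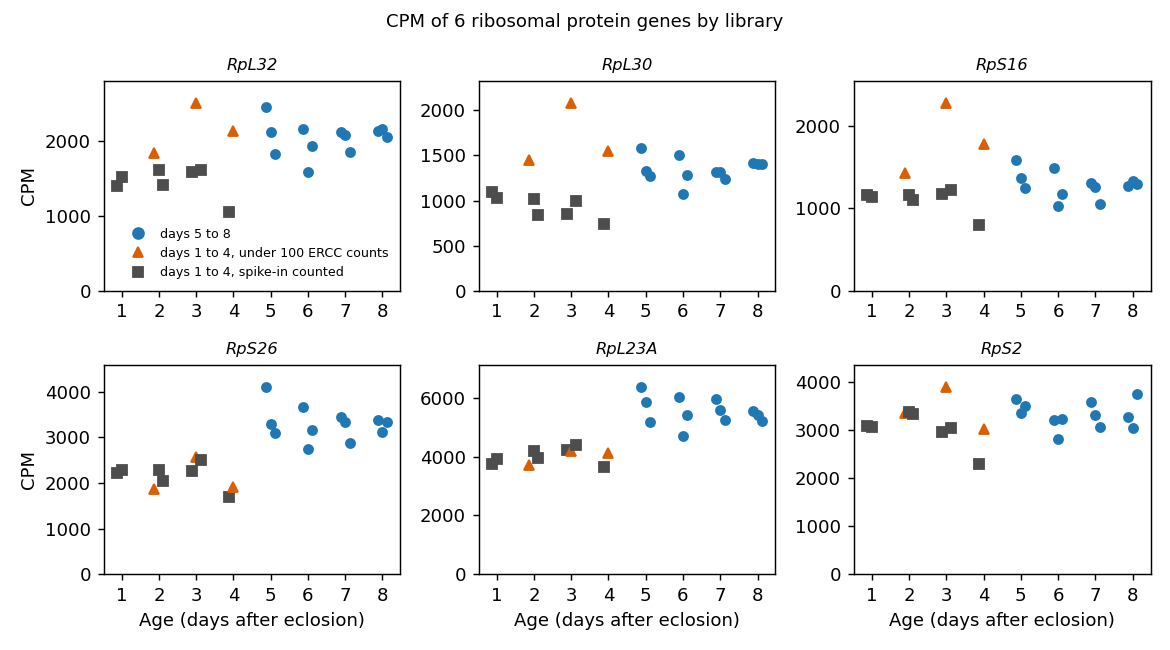
CPM of 6 ribosomal protein genes in each library against age in days; circles are days 5 to 8, triangles the 3 libraries with under 100 ERCC counts, squares the other libraries of days 1 to 4. For RpL32, RpL30 and RpS16 the triangles lie above the squares of their day, for RpS26 and RpL23A they lie near the squares and below the circles, and for RpS2 the 3 groups overlap.

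With both kinds of young library pooled by day, 33 of 78 genes were called higher at days 5 to 8 and 0 lower, where 4.06% of all tested genes were called higher and 4.76% lower. The median log2 difference was 0.29, against -0.02 over all genes. Of the 270 abundant non-member genes 16.3% were called higher (median 0.15). Of the 33 of them with transcripts of at most 1200 bp, 12.1% were called higher and 12.1% lower (median 0.08). RpS26 was first (log2 0.63, SE 0.08, edgeR adjusted p = 1.36e-05), with RpS29 and RpS24 at 0.54 each. RpL32 did not pass (log2 0.32, SE 0.11, edgeR adjusted p = 0.0849). The count fell to 21 without day 1 replicate 1 and to 22 without day 4 replicate 1, and it was 51 without either day 3 replicate 2 or day 4 replicate 2.

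Within the age series no ribosomal protein gene was called. An edgeR F-test for any difference among days 5 to 8 called 0 of 78 genes, where 0.0125% of all tested genes were called. At an unadjusted p under 0.05 there were 0 of the 78 genes and 248 of all 8024. The fit had no term for library kind, so its spread, shared over all 22 libraries, took in the difference between kinds at days 2 to 4. The same test among days 1 to 4 called 0 of 78, where 0.0249% of all tested genes were called. At an unadjusted p under 0.05 there were 2 of the 78 genes and 650 of all 8024. DESeq2 called 0 in both. The 3 genes with the smallest p were RpS20, RpS27 and RpLP0-like among days 5 to 8 and RpLP0-like, RpS9 and RpL39 among days 1 to 4.

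Between day 8 and day 5 the median log2 difference was -0.05 over the set and -0.01 over all genes. It was positive for 13 and negative for 65 of 78 genes, where 48.9% of all tested genes were positive. The median was -0.07 over the 270 abundant non-member genes and -0.05 over 635 such genes of any transcript length. Of the 78 genes 0 were called in either direction, as among all tested genes (0%). At an unadjusted p under 0.05 there were 0 of the 78 genes and 234 of all 8024. The median standard error of a gene in that comparison was 0.19. Between day 4 and day 1 the median was 0.03 and 0 were called, where 0.0125% of all tested genes were called higher and 0.0249% lower. Only RpLP0-like had an unadjusted p under 0.05 there (log2 0.72, SE 0.25, edgeR adjusted p = 0.344). Without day 4 replicate 1, which leaves the spike-poor library alone, the median became 0.31, and without that library it became -0.27. The difference between the changes of both age series called 0 of 78 genes (0% of all tested genes), with a median of -0.07. At an unadjusted p under 0.05 there was 1 of the 78 genes and 807 of all 8024. DESeq2 also called 0 in these 3 comparisons.

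Spike-in counts gave a second scale at days 5 to 8. The set had 18.8 ± 1.53 counts per ERCC count at day 5, 14.5 ± 2.75 at day 6, 11.1 ± 2.20 at day 7 and 11.7 ± 3.04 at day 8 (SD, n = 3 each). All genes together had 98.6 ± 8.74, 85.6 ± 25.4, 62.2 ± 16.9 and 61.7 ± 15.3 counts per ERCC count on those days. The set and the whole thus both stood lower at days 7 and 8 than at day 5 on this scale.

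Ribosomal protein genes varied between libraries about as much as other abundant genes. Their median coefficient of variation over the 12 libraries of days 5 to 8 was 10.4%, against 11.1% for the other 635 genes with a mean log2 CPM of at least 8 and 19.6% for all tested genes. The median biological coefficient of variation from edgeR was 17.1%, against 16.5% and 20.9%. The second measure comes from the fit by day over all 22 libraries, with no term for library kind, and the order of genes differed between the measures. On the second, RpL23A (12.5%) and RpL3 (13.1%) were lowest, and these 2 genes differed little between library kinds, as given above. RpL15, RpL30, RpS28b and RpL37A were high on it (22.7 to 23.9%), and they were among the genes that differed most between library kinds. Over days 5 to 8 alone, RpS28b (8.99%), RpL30 (9.69%) and RpL37A (10.4%) were not above the median of the set. RpL15 (11.5%) was above it. On this measure RpL6 (6.93%) and RpL18 (6.95%) were lowest, and RpL41 (16.2%) and RpL39 (15.6%) were high. RpS15Ab, at the lowest level, was highest on both (28.8% from edgeR and 20.4% over days 5 to 8).

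Medians were set side by side by subunit and position. Between days 5 to 8 and the young spike-in libraries the median log2 difference was 0.46 for the small and 0.47 for the large subunit, and 0.43 to 0.50 for the chromosome arms X, 2L, 2R, 3L and 3R. RpS3A, on the fourth chromosome, had 0.20. Between library kinds the subunit medians were 0.49 and 0.52, and those of the 5 arms ran from 0.37 on 3L to 0.55 on 2L. Against all young libraries the arms ran from 0.22 on 2L to 0.32 on X. These differences between arms were not tested. Between library kinds, genes with a longest transcript of up to 871 bp, the median of the set, had 0.58 and longer ones 0.45. Other short genes moved in the same direction between library kinds. The 1652 tested non-member genes with transcripts of at most 1200 bp had a median of 0.35, and 14.4% of them were called higher. Of these, the 33 with a mean log2 CPM of at least 8 had a median of 0.38, and 48.5% of them were called higher. The bounds of 8 and 1200 were chosen with the data in view.

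Many fly ribosomal protein genes host snoRNAs, which guide the modification of ribosomal RNA, in their introns. In the annotation 27 of the 83 genes held 56 snoRNAs, up to 7 in RpS7 and 5 each in RpS16 and RpL28. Summed over these snoRNAs, 81.9 to 286 CPM were counted at days 5 to 8, 70.1 to 104 CPM in the spike-poor libraries and 476 to 1087 CPM in the young spike-in libraries. Of the 28 snoRNAs tested, 0 were called higher and 19 lower at days 5 to 8 against the young spike-in libraries (median log2 -2.29), and 0 higher and 17 lower in the spike-poor against the spike-in libraries (median -3.02). Over all 95 tested snoRNAs and small nuclear RNAs, 75 were called lower in the first comparison (median -2.51) and 66 in the second (-3.45). The median of the host genes themselves was 0.43, against 0.47 for genes without a snoRNA, in the first comparison, and 0.44, against 0.54, in the second. The snoRNA reads thus stood high in the same young spike-in libraries in which the mRNAs of the set stood low. Mature snoRNAs carry no polyA tail, and the part of RNA selection in the mRNA values was not tested.

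Genes of the translation machinery outside the set were counted beside it, to be read against the shares of all tested genes given above (6.21% higher and 8.04% lower at days 5 to 8 against the young spike-in libraries, 7.8% and 11.8% between library kinds). Of the 8 tested genes of the paralog pairs, 6 were called higher at days 5 to 8 against the young spike-in libraries and 0 lower (median log2 0.32), with RpS10b at 0.52, RpL24 at 0.42 and RpS19a at 0.39. In the spike-poor libraries 6 were called higher (median 0.56), while RpL22 had -0.12 (SE 0.13). Of 7 elongation factor genes 5 were called higher at days 5 to 8 against the young spike-in libraries and 0 lower. Among them Ef1alpha48D, which brings aminoacyl-tRNA to the ribosome, averaged 27128 ± 2051 CPM at days 5 to 8, against 18575 ± 854 CPM in the young spike-in libraries (SD, n = 12 and 7), with a log2 difference of 0.55 (SE 0.06, edgeR adjusted p = 3.75e-07). Between library kinds 4 of the 7 were called higher, with eIF-5A at 1.11 (SE 0.09, edgeR adjusted p = 5.2e-08), while EF2, the translocase, had -0.01 (SE 0.08).

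Of 74 mitochondrial ribosomal protein genes 9 were called higher and 0 lower at days 5 to 8 against the young spike-in libraries (median 0.18), and likewise 9 and 0 between library kinds (median 0.36). Of 50 ribosome biogenesis factors 1 was called higher and 2 lower at days 5 to 8 against the young spike-in libraries, with a median of 0.10, which is a smaller share than among all genes in both directions. Between library kinds 2 of these 50 were called higher and 0 lower, with a median of 0.00187. Of 9 genes of RNA polymerase I, which makes ribosomal RNA, and its initiation factors, 1 was called higher at days 5 to 8 against the young spike-in libraries and 2 between library kinds. Of 19 growth regulators of ribosome synthesis 2 were called higher and 1 lower in the older libraries, near the shares of all genes. Between library kinds 4 were called higher and 5 lower, among them Tor at -0.80 and larp, which binds ribosomal protein mRNAs in mammals, at -0.73 (SE 0.10, edgeR adjusted p = 1.1e-05).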

How the data were processed

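RNA was sequenced as 76 nt single-end reads from 22 libraries, grouped by the age and replicate in their titles. The authors deposited raw read counts per feature. The submitters' processing notes name HTSeq 0.6.1p1, HISAT2 2.0.1, CASAVA 1.8.2 and SAMtools 0.1.2, and the deposited annotation is FlyBase release 6.07 with ERCC sequences. Each library lists 19146 features: 17478 genes, 1572 insertion features (1.46 to 4.11% of counts, left out) and 96 ERCC transcripts. The strand setting and the handling of reads over several features were not stated in the sources used here.

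Genes passing filterByExpr (minimum count 10; 8024 genes) were fitted with edgeR 4.0.16 (R 4.3.3, TMM, quasi-likelihood test, Benjamini-Hochberg adjustment over all genes, threshold 0.05), with 1 coefficient per day, and with library kind added (under 100 ERCC counts or not) where it is named. Spread was shared over all 22 libraries (common biological coefficient of variation 23.2%, 14 residual degrees of freedom, 13 with library kind). CPM used TMM sizes of gene counts, and levels were divided by the union of exons. The labels call the replicates independent biological samples. No libraries of a day agreed within sampling noise (lowest chi-square per degree of freedom 3.91). Same-numbered libraries of different days did not deviate together (median r 0.05), so numbers were not taken as pairs. Alternatives were DESeq2 1.42.0, its size factors, gene totals, TMM without the set, ERCC sizes, other filters, a replicate block and leaving out libraries. The members and gene lists were chosen with earlier results of these data known. Genes were named by size of change, lowest p, level and dispersion, and some members that this rule names are counted but not reported singly here. Limits from 0 counts use 3 counts and cover counting error only.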

Additional observations from a re-analysis of the deposited data

Results flagged for a closer look

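Among the 7 young spike-in libraries, day 4 replicate 1 was the lowest and far from the other 6 for 14 of 79 measures tested (the set's share and 78 genes). The gap to the nearest library exceeded Dixon's 95% critical value of 0.568 of the whole range. In CPM, its values were RpL32 (1044), RpLP2 (1503), RpS27A (1145), RpS2 (2288), RpL23 (1372), RpS21 (506), RpL29 (560), RpL39 (377), RpL17 (1565), RpS28b (820), RpS23 (1063), RpS16 (801), RpS27 (631) and RpL27A (1548). For RpS23 the next library had 1581 CPM and the gap was 0.854 of the range, and for RpL32 the next had 1395 CPM. Chance alone flags about 1 in 20 groups, and the 14 genes share 1 library. That library also held the most spike-in, 910875 ERCC counts or 43.5% of its gene and ERCC counts, and the second fewest gene counts, 1184248. The part of this in its low values was not tested. With the 3 spike-poor libraries added, 30 of 79 measures over the 10 libraries of days 1 to 4 stood out in the same way, 29 of them with day 3 replicate 2 highest and 1 with day 4 replicate 1 lowest.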

How the results depend on the processing

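No call of a named gene changed direction under the alternatives run. Gene totals without TMM moved the median of all genes by -0.11, -0.10 and -0.11 in the comparisons of days 5 to 8 with all, spike-in and spike-poor young libraries. With them, 18 genes were higher against all young libraries, and 6 were higher and 25 lower against spike-poor ones. DESeq2 size factors gave 8 lower there. Without the spike-poor libraries, 73 were higher against young libraries (median log2 0.48), and the medians were -0.27 for day 4 against day 1 and 0.24 for the difference of the changes. With ERCC sizes the median of day 8 against day 5 was -0.68 over the set and -0.64 over all tested genes. The cause of these shifts was not tested. DESeq2 called 42 higher against all young libraries, 72 against spike-in ones and 55 between library kinds, and 11 higher and 9 lower against spike-poor ones. For the replicate block, which the numbers do not justify, those counts were 37, 74, 57, 11 and 11.

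Leaving out 1 library at a time gave 21 to 51 genes higher against all young libraries (median 0.23 to 0.39), 66 to 74 against spike-in ones (0.43 to 0.49), and 33 to 62 between library kinds (0.41 to 0.65). Against spike-poor libraries it gave 4 to 11 higher and 0 to 15 lower (-0.10 to 0.08). Medians ranged from -0.27 to 0.31 for day 4 against day 1, -0.13 to 0.04 for day 8 against day 5, and -0.36 to 0.24 for the difference of the changes, with 0 calls throughout. Of 580 values for the named genes against spike-poor libraries 46 were not called, and 4 of 290 between library kinds, all for RpS15Ab. The 2 comparisons that need spike-poor libraries have no value without them, and ERCC sizes were used for days 5 to 8 only. Median and highest levels per kb moved by less than the spread between replicates with another length or scale. Young spike-in libraries were the shallowest, which limits genes as low as RpS15Ab.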
